A study of Mus musculus with 4 samples.

Results

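The WNT genes described here are 10 members of the pathway, of the 27514 genes that all 4 libraries listed by the same Ensembl ID. They were taken from a fixed list, matched by Ensembl ID, and comprised 3 ligands (Wnt2, Wnt5a and Wnt11), 4 secreted inhibitors (Sfrp1, Sfrp2, Sfrp5 and Dkk1) and 3 genes of the response to canonical signalling (Nkd1, Axin2 and Lef1). All 10 were found, and all 10 had UMIs in every library. The libraries were droplet 3′ single-cell RNA-seq of GFP-positive, DAPI-negative cells sorted from mouse embryos in which a Cre knocked into the Tbx1 locus marks the Tbx1 lineage. The control libraries (Ctrl) came from Tbx1Cre/+;Rosa26-GFPflox/+ embryos, which carry 1 working Tbx1 copy because the Cre replaces the other. The conditional null libraries (cKO) came from Tbx1Cre/flox;Rosa26-GFPflox/+ embryos. The upper body was taken at E8.5, and the pharyngeal apparatus and heart (with the back, by the study's account) at E9.5, from Swiss Webster embryos that were pooled for each library. There were 4 libraries, 1 for each genotype and stage, so no difference between groups has a replicate or a test: genotype and library cannot be told apart, nor can stage, dissected tissue and library. By the study's account, the range of somite counts at E8.5 was slightly later for cKO than for Ctrl embryos. At that stage this difference cannot be told apart from genotype either.

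WNT ligands bind Frizzled receptors and their co-receptors on neighbouring cells. In the canonical branch this stabilises β-catenin, which with TCF and LEF factors switches on target genes, several of which encode feedback inhibitors. Other ligands, Wnt5a and Wnt11 among them, are best known for signalling without β-catenin, in cell polarity and movement. Both branches are known to act in the heart fields and in pharyngeal mesoderm, where their level has to be tuned as progenitors leave the pool and differentiate.

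The libraries held 1434 cells (Ctrl E8.5), 1090 cells (cKO E8.5), 5453 cells (Ctrl E9.5) and 6266 cells (cKO E9.5), with median depths between 15910.5 and 23984 UMIs per cell. Levels are given as UPM, which is UMIs per 1000000 UMIs of the shared genes, summed over the cells of a group. All intervals are 95% and cover counting error alone, not the spread between embryos or the clustering of UMIs in a few cells. At E8.5 Tbx1 itself was at 86.4 UPM in Ctrl against 118 in cKO, and at E9.5 at 103 against 134, so it was not lower in the libraries labelled cKO. A 3′ tag need not lie in the deleted part of the gene, so this level does not check the genotype, and cKO stands for the label throughout. The cKO E9.5 library was counted on a gene table of 31053 genes and the others on one of 27998 genes, so at E9.5 the gene table cannot be told apart from genotype either. Between 2 and 55 cell barcodes were shared by any pair of libraries, the highest number being for the pair at E9.5.

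Cells were placed in 13 groups by UMIs of marker genes, and the groups with at least 30 cells in a library are described. Check markers, which did not set the gates, were higher in the gate than in other cells for cardiomyocyte-like (CM-like) cells, endothelial-like cells, epithelial-like cells with and without endoderm markers, neural-like cells, cells of the posterior second heart field (pSHF-like) and cells with Zic1 and Msx1. The exception was Nkx2-1, which was at 0 inside and outside the gate with endoderm markers in cKO E9.5. The check markers were also higher for multilineage primed progenitor-like (MLP-like) cells, gated on Arg1, Rdh10 and Vamp8. Their own levels inside this gate were lower for cKO at E9.5. Aplnr was at 82.1 UPM (Ctrl) against 12.6 (cKO), Isl1 at 157 against 63.9 and Nrg1 at 36.1 against 14.7. Outside the gate they were lower for cKO as well, such as Aplnr at 27.9 against 5.75 UPM. The gate held 5.92% of Ctrl cells and 12.3% of cKO cells at this stage. The part of these differences in the MLP-like ratios was not tested. In branchiomeric muscle progenitor-like (BrM-like) cells, gated on Tcf21, Msc, Lhx2, Myf5 and Myod1, Tbx1 was higher in every library, but Ebf2 was not in cKO E9.5 (49.6 UPM in the gate against 52.9 outside). The mesenchyme gate passed at E9.5, but at E8.5 only Col3a1 of its 3 check markers was clearly higher. The check failed for 2 further gates, which are called by their genes, the Isl1, Nkx2-5 and Mef2c gate (Fgf8 at 32.8 UPM inside and 59.1 outside in Ctrl E9.5) and the Tcf15 and Meox1 gate (Pax3 and Nkx3-2 at 0 in Ctrl E9.5). In the latter gate of cKO E9.5, Nkx3-2 was also at 0, but Pax3 was at 22.0 UPM inside against 0.649 outside. Meox2 was there at 21.1 UPM against 3.67, whereas the Ctrl library of that stage had 2.71 against 1.87. At E8.5, Pax3 and Meox2 were higher inside this gate in each library. How far this mismatch bears on the gate's genotype ratios at E9.5 was not tested.

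The members lie on 7 chromosomes (coordinates on GRCm38.p6, the build of the mm10 reference). The ligand genes are Wnt2 (ENSMUSG00000010797, chr6:17985474-18032772), Wnt5a (ENSMUSG00000021994, chr14:28504543-28527448) and Wnt11 (ENSMUSG00000015957, chr7:98835084-98854747). The inhibitor genes are Sfrp1 (ENSMUSG00000031548, chr8:23411383-23449632), Sfrp2 (ENSMUSG00000027996, chr3:83765750-83774314), Sfrp5 (ENSMUSG00000018822, chr19:42197971-42202252) and Dkk1 (ENSMUSG00000024868, chr19:30545876-30549496). The response genes are Nkd1 (ENSMUSG00000031661, chr8:88521342-88594887), Axin2 (ENSMUSG00000000142, chr11:108917828-108950783) and Lef1 (ENSMUSG00000027985, chr3:131110297-131224357). RefSeq promoters, each from 250 bases before to 50 bases after a gene start, were at hand for 8 of the 10 members (12 promoters in all), and none for Wnt5a and Sfrp1. They were searched on both strands for the core of the TCF/LEF motif, CTTTGA, since Lef1 and the response genes report canonical signalling, and for the T-box motif AGGTGT, since the embryos differ in a T-box factor. The core was in 3 of the 12 member promoters, those of Dkk1, Wnt11 and 1 start of Lef1, and in 16.003% of all 32851 promoters. The T-box motif was in 3 of the 12, at both Lef1 starts and at Nkd1, and in 13.7% of all promoters. These 6 letters are common, and a match is a description of the sequence and not a binding site. The windows for Lef1 and Dkk1, the members past 2-fold lower in BrM-like cells of cKO E9.5, with the match in capitals, read 5′ to 3′ on the gene's strand as follows.
Lef1, first start, chr3:131112548-131112577, + strand: tccccacagcccACACCTtagcggccactc
Lef1, first start, chr3:131112772-131112801, + strand: gtgcttttaagaACACCTcagagttacctt
Lef1, inner start, chr3:131156102-131156131, + strand: taaaatacatggTCAAAGgaaaataggtat
Lef1, inner start, chr3:131156162-131156191, + strand: cattgtctgttcTCAAAGtcaggtcttgca
Lef1, inner start, chr3:131156293-131156322, + strand: cagatcaagaaaAGGTGTttatctctattg
Dkk1, chr19:30549596-30549625, − strand: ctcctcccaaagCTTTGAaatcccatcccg
Dkk1, chr19:30549653-30549682, − strand: gaggggagagtgTCAAAGtcctccctgctt
Of these matches, CTTTGA and its complement TCAAAG are the TCF/LEF core, and AGGTGT and its complement ACACCT the T-box motif. The windows of the first Lef1 start are centred at −228 and −4 from that start, those of the inner start at −177, −117 and 14, and those of Dkk1 at −114 and −171. Both Lef1 starts lie inside the gene's span given above. The Dkk1 match at −114 is part of the longer form CTTTGAA, which 5.14% of all promoters hold. The Wnt11 promoter held another longer form, CTTTGAT, on the opposite strand, which 3.73% of all promoters hold, in the 30 bases centred at −47.
Wnt11, chr7:98835050-98835079, + strand: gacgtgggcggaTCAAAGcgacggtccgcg
Nkd1, chr8:88527488-88527517, + strand: ctgtccagggacAGGTGTgtgaggccgcct
The longer T-box motifs GGTGTGA and AGGTGTGA (3.98% and 1.28% of all promoters) were in none of the 12 member promoters.

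Over all cells, the highest and the lowest of the 4 libraries lay more than 2-fold apart for Sfrp1, Sfrp5, Wnt11 and Dkk1. In sums over all cells, fewer cells of a type and less RNA per cell cannot be told apart. Sfrp1, a secreted Frizzled-related protein that binds WNT ligands, was at 71.7 and 57.6 UPM (Ctrl, then cKO) at E8.5, and at 220.4 and 118 UPM at E9.5. It was higher at E9.5 than at E8.5 in both genotypes and lower in cKO than in Ctrl at both stages. Lef1, a DNA-binding partner of β-catenin, was at 33.2, 27.5, 36.2 and 20.5 UPM in the same order, and thus lowest in cKO E9.5. Dkk1, which blocks the LRP co-receptors, was at 6.66, 7.42, 9.67 and 13.8 UPM, highest in cKO E9.5. The remaining inhibitors were Sfrp2 at 20.4, 28.8, 37.4 and 31.3 UPM and Sfrp5 at 4.12, 2.95, 1.61 and 1.46 UPM. The feedback inhibitors Nkd1 (46.4, 36.6, 53.2 and 48.4 UPM) and Axin2 (20.8, 20.2, 18.1 and 16.8 UPM), which dampen the signal through Dishevelled and the β-catenin destruction complex, had narrower ranges. Of the ligands, Wnt5a was at 15.6, 15.5, 18.1 and 18.8 UPM and Wnt2 at 3.88, 4.66, 5.46 and 4.83 UPM. Wnt11 rested on 9, 8, 76 and 71 UMIs (0.357, 0.311, 0.806 and 0.679 UPM).

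**Figure D1:**
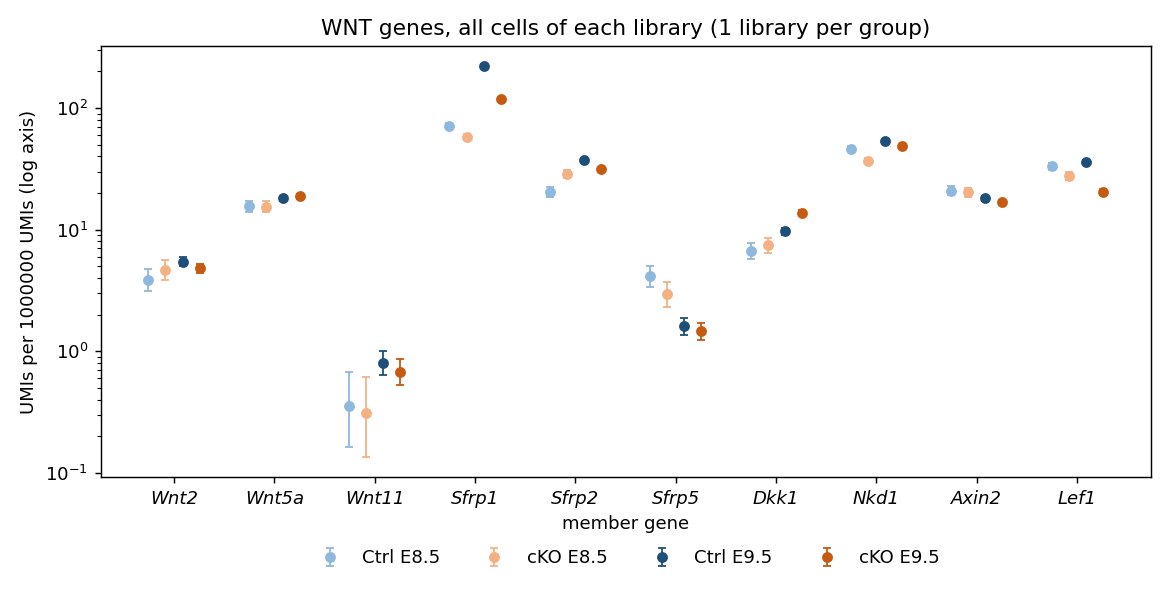
Level of each member over all cells of each of the 4 libraries, in UPM on a log axis, with the 95% counting interval of each value. Sfrp1 stands between 57.6 and 220.4 UPM and Wnt11 under 1 UPM in every library.

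Of the ligands, Wnt2 and Wnt11 were most concentrated in pSHF-like or CM-like cells. In Ctrl E9.5, Wnt2, a canonical ligand known from the venous pole of the heart, was at 158 UPM (134 to 185) in pSHF-like cells and 82.7 UPM (71.5 to 95.3) in CM-like cells, and these 2 intervals did not overlap. The 2 gates held 30.5% and 37.5% of the library's 515 Wnt2 UMIs, against 1.05% and 2.47% of all UMIs. MLP-like cells came next with 10.6 UPM (8.13 to 13.6), but 72.6% of their 62 UMIs were in 5 cells. After thinning every cell to 10000 UMIs, 50% of pSHF-like cells held a Wnt2 UMI (35.5 to 64.5), against 0 of 93 cells in the Tcf15 and Meox1 gate, which allows a share of up to 3.23%. Median depths in those 2 gates were 18671.5 and 17089 UMIs, and without thinning the shares were 50% and 0.

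Wnt11, a non-canonical ligand of the outflow tract and myocardium, was highest in CM-like cells at E9.5. It stood at 21.0 UPM (15.5 to 27.8) in Ctrl E9.5 and 19.7 UPM (13.2 to 28.2) in cKO E9.5, and at most 1.77 UPM in any other gate. CM-like cells held 64.5% of the 76 Wnt11 UMIs of Ctrl E9.5, and endothelial-like cells came next with 8 UMIs. At E8.5 they held 2 UMIs in Ctrl and 4 in cKO (2.71 and 4.72 UPM), and the log2 ratio of Ctrl E9.5 to Ctrl E8.5 in these cells was 2.95 (1.02 to 6.04).

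Wnt5a was broader. Its level in Ctrl E9.5 was 61.5 UPM (47.0 to 79.0) in pSHF-like cells, 51.4 (42.6 to 61.5) in CM-like cells and 48.7 (43.2 to 54.7) in MLP-like cells, and these intervals overlapped. BrM-like cells followed at 35.7 UPM (31.9 to 39.9), and endothelial-like cells were lowest at 2.14 (1.27 to 3.38). In MLP-like cells Wnt5a was at 25.7 and 22.2 UPM (Ctrl, then cKO) at E8.5, and at 48.7 and 32.6 UPM at E9.5. The log2 ratio between the stages in Ctrl was 0.92 (0.59 to 1.27), where the median of all genes in the gate was 0.31. The log2 ratio of cKO to Ctrl at E9.5 was −0.58 (−0.80 to −0.36), where that median was −0.23. Within the MLP-like cells the E9.5 difference was found in cells with an Isl1 UMI, at 57.0 UPM in Ctrl and 34.4 in cKO (log2 ratio −0.73, −0.99 to −0.47). In cells without one the levels were 25.4 and 30.6 UPM (0.27, −0.23 to 0.80). Cells with an Isl1 UMI were 231 of 323 in Ctrl and 381 of 771 in cKO. Isl1 did not stand alone in this. With and without a UMI of another marker, the ratios were −0.96 and −0.19 for Nkx2-5, −0.73 and 0.04 for Tbx1, and −0.50 and −0.16 for Aplnr. With 1 library per group, the difference between 2 such ratios was not tested, here or in the splits given further on. BrM-like cells also had less Wnt5a in cKO (22.1 UPM, log2 ratio −0.69), whereas the Tcf15 and Meox1 gate had more (15.2 and 27.2 UPM, 0.84).

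**Figure D2:**
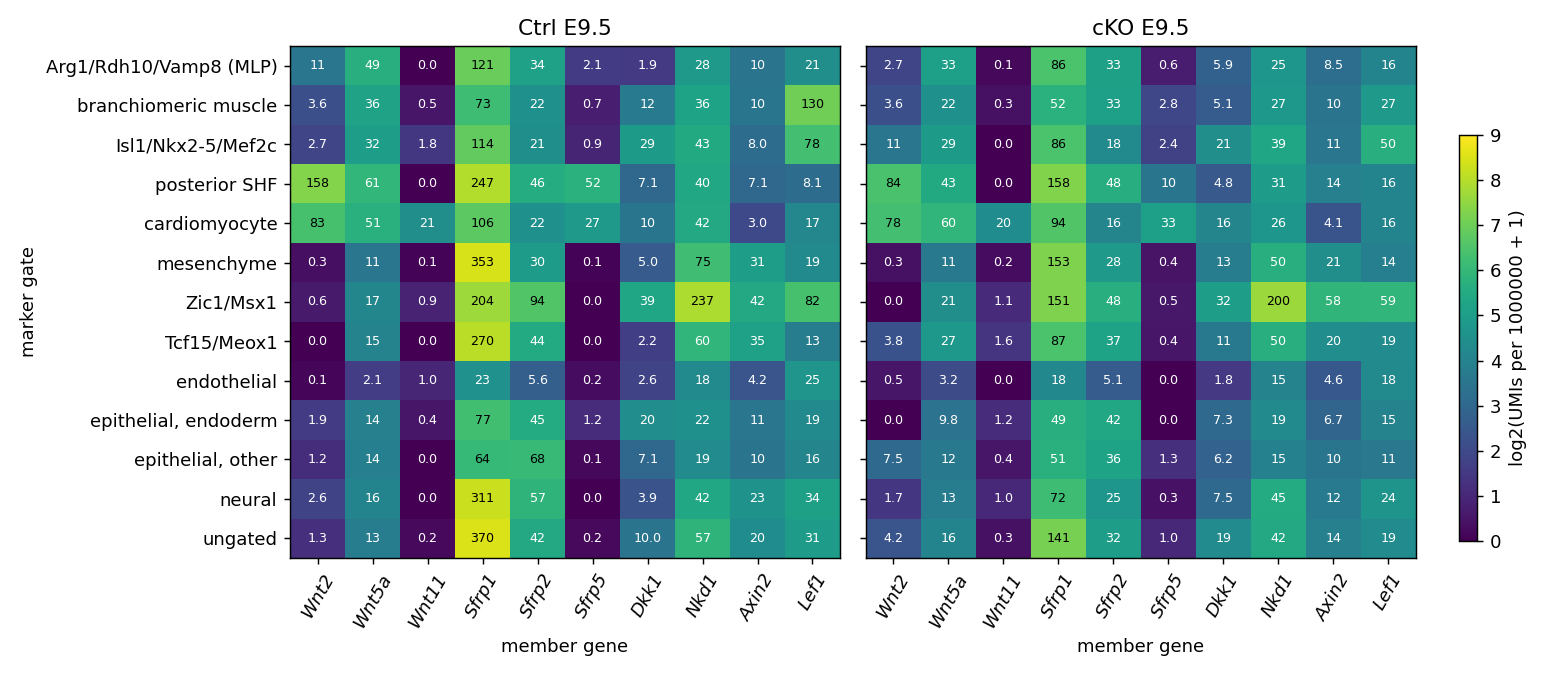
Level of each member in each gate with at least 30 cells, and in cells in no gate, for Ctrl E9.5 and cKO E9.5, in UPM on a log colour scale. Wnt2, Wnt11 and Sfrp5 are high in the pSHF-like or CM-like rows, Nkd1 in the Zic1 and Msx1 row and Lef1 in the BrM-like row of Ctrl E9.5.

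Among the inhibitors, Sfrp5 shared the pattern of Wnt2. In Ctrl E9.5 it was at 52.4 UPM (39.1 to 68.7) in pSHF-like cells and 27.4 (21.1 to 35.0) in CM-like cells, 34.2% and 42.1% of its 152 UMIs. Single cells joined the pair as well: after thinning, 34 cells of Ctrl E9.5 held Sfrp5, and 25 of them (73.5%) also held Wnt2, which 2.06% of all cells held. The share was lower in cKO E9.5, 25 of 52 cells (48.1%), and in Ctrl E8.5, 7 of 31 (22.6%). All of these shares are over the whole library. They were not computed within the pSHF-like or CM-like gates, where both genes were highest in Ctrl E9.5. In pSHF-like cells Sfrp5 was at 10.2 UPM in cKO E9.5 (log2 ratio −2.36, −3.30 to −1.51), but 78.8% of the 52 UMIs of Ctrl were in 5 of its 54 cells, so a handful of cells set this value. Wnt2 in the same cells was at 158 and 83.6 UPM (−0.92, −1.27 to −0.57), in 27 cells of Ctrl and 37 of cKO. The summed level of the Tbx5, Osr1, Hoxb1 and Foxf1 markers was also lower in the cKO gate, at 579 and 379 UPM, and that of Tcf15, Meox1, Pax1 and Uncx was higher, at 9.07 and 95.8 UPM. Their part in the result was not tested. In CM-like cells neither gene differed beyond its interval, with Wnt2 at 82.7 and 77.9 UPM and Sfrp5 at 27.4 and 33.2 UPM. Of the 6 gates with at least 20 Wnt2 UMIs, 3 were higher in cKO, 2 of them with intervals above 0. These were the Isl1, Nkx2-5 and Mef2c gate (2.66 and 10.6 UPM, 1.99, 0.64 to 3.58), where the 22 UMIs of cKO were in 1 cell, and epithelial-like cells without endoderm markers (1.25 and 7.52 UPM, 2.59, 1.35 to 3.94), where its 17 UMIs were in 3 cells. Cells in no gate also had more Wnt2 in cKO, at 1.33 and 4.17 UPM (1.65, 1.08 to 2.25).

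Sfrp1 was highest in Ctrl E9.5 in the mesenchyme gate, at 353 UPM (345 to 361), above neural-like cells at 311, the Tcf15 and Meox1 gate at 270.2 and pSHF-like cells at 247 UPM. Cells in no gate were at 369.9 UPM, and endothelial-like cells at 22.7. The share of thinned cells with an Sfrp1 UMI was 92.1% in the mesenchyme gate and 11.6% in endothelial-like cells, at median depths of 16033 and 19804.5 UMIs (96.4% and 16.1% without thinning). In the mesenchyme gate Sfrp1 was at 91.5 and 81.4 UPM at E8.5, again Ctrl before cKO, and at 353 and 153 UPM at E9.5. The step between stages was 1.95 on the log2 scale in Ctrl (1.75 to 2.15), and the cKO E9.5 level was less than that of Ctrl E9.5 by 1.21 (log2 ratio −1.21, −1.27 to −1.15).

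The lower Sfrp1 in cKO E9.5 was not limited to that gate. It was lower in 12 of the 12 gates, and in 10 of them the interval lay below 0, from −0.17 in CM-like cells (−0.48 to 0.13) to −2.11 in neural-like cells (−2.39 to −1.84). In the neural-like gate 56.7% of the 240 UMIs of Ctrl were in 5 of its 41 cells. Endothelial-like cells were the other exception, at −0.37 (−0.91 to 0.14). The median log2 ratio of all genes lay between −0.23 and −0.18 in these gates, and it fell inside the Sfrp1 interval in CM-like and endothelial-like cells, in epithelial-like cells without endoderm markers (−0.33, −0.63 to −0.03) and in the Isl1, Nkx2-5 and Mef2c gate (−0.41, −0.69 to −0.13). Against the median, Sfrp1 was lower in 11 gates and higher in 1, CM-like cells. The Tcf15 and Meox1 gate had 270.2 UPM in Ctrl and 86.6 in cKO (−1.64). MLP-like cells had 121 and 85.8 UPM (−0.50), of which those without an Isl1 UMI had 198 and 94.997 UPM (−1.06, −1.26 to −0.86). Those with one had 94.1 and 77.4 UPM (−0.28, −0.47 to −0.10), an interval that holds the median of all genes in the gate, −0.23. With and without a UMI of another marker, the ratios were −0.05 and −0.73 for Nkx2-5 and −0.35 and −0.76 for Aplnr. For Tbx1 the order was the opposite, −0.52 with and −0.36 without. At E8.5 Sfrp1 was lower in cKO in 6 of 7 gates, with 3 intervals below 0, such as BrM-like cells at 51.2 and 30.9 UPM.

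Sfrp2 was highest in the Zic1 and Msx1 gate of Ctrl E9.5, at 93.9 UPM (83.9 to 105), and was at 48.5 UPM there in cKO (log2 ratio −0.95, −1.18 to −0.72). In BrM-like cells the order was the opposite, 21.9 UPM in Ctrl and 33.2 in cKO (0.60, 0.31 to 0.89). Over all cells it was higher in cKO at E8.5 (0.50, 0.33 to 0.66) and lower at E9.5 (−0.26, −0.33 to −0.19), the latter being the median of all genes.

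Dkk1 differed in both directions. In Ctrl E9.5 it was highest in the Zic1 and Msx1 gate (38.6 UPM, 32.3 to 45.7), the Isl1, Nkx2-5 and Mef2c gate (29.3, 22.6 to 37.3) and epithelial-like cells with endoderm markers (20.2, 17.0 to 23.9), and was low in MLP-like cells (1.88, 0.939 to 3.37). In MLP-like cells Ctrl and cKO had 3.08 and 3.25 UPM at E8.5, then 1.88 and 5.94 UPM at E9.5. The last 2 values rest on 11 UMIs in 10 cells and 85 UMIs in 39 cells, with a log2 ratio of 1.66 (0.75 to 2.71). In the mesenchyme gate it was at 4.99 UPM in Ctrl and 12.8 in cKO (99 and 327 UMIs; 1.36, 1.03 to 1.70), and the share of thinned cells with a UMI was 3.60% and 8.01%. The mesenchyme gate also showed more Dkk1 in cKO at E8.5, 3.73 and 9.26 UPM (1.31, 0.22 to 2.56). The ratio at E9.5 was larger in mesenchyme cells with a Foxf2 UMI, at 1.28 and 9.51 UPM (2.90, 1.89 to 4.08), than in those without, at 7.03 and 14.2 UPM (1.02, 0.66 to 1.38). The summed level of the mesenchyme gate's own markers was 812 UPM in Ctrl and 769 in cKO, and that of Tcf15, Meox1, Pax1 and Uncx 49.0 and 90.3 UPM, and their part in the Dkk1 value was not tested. In the Tcf15 and Meox1 gate Dkk1 was at 2.17 and 11.4 UPM (2.39, 0.95 to 4.32), but 62.7% of the 51 UMIs of cKO were in 5 cells. By contrast BrM-like cells had 12.1 UPM in Ctrl and 5.12 in cKO (−1.24, −1.87 to −0.65), and epithelial-like cells with endoderm markers 20.2 and 7.34 UPM (−1.46, −2.45 to −0.61). In the epithelial-like gate 50.7% of the 136 UMIs of Ctrl were in 5 cells, and cKO held 12 UMIs. In BrM-like cells the Dkk1 ratio was similar on both sides of the Lhx2 split, but not of the Myf5 and Msc splits. Cells with an Lhx2 UMI had 12.4 and 5.21 UPM (−1.25, −2.11 to −0.47). Those without had 10.6 and 5.03 UPM (−1.08, −2.23 to 0.08). With a Myf5 UMI Dkk1 was at 10.9 and 13.2 UPM (0.28, −0.77 to 1.28) and without it at 12.47 and 3.25 UPM (−1.94, −2.81 to −1.16). With Msc it was at 11.2 and 3.48 UPM (−1.69, −2.55 to −0.91) and without it at 14.1 and 11.9 UPM (−0.24, −1.24 to 0.68).

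**Figure D3:**
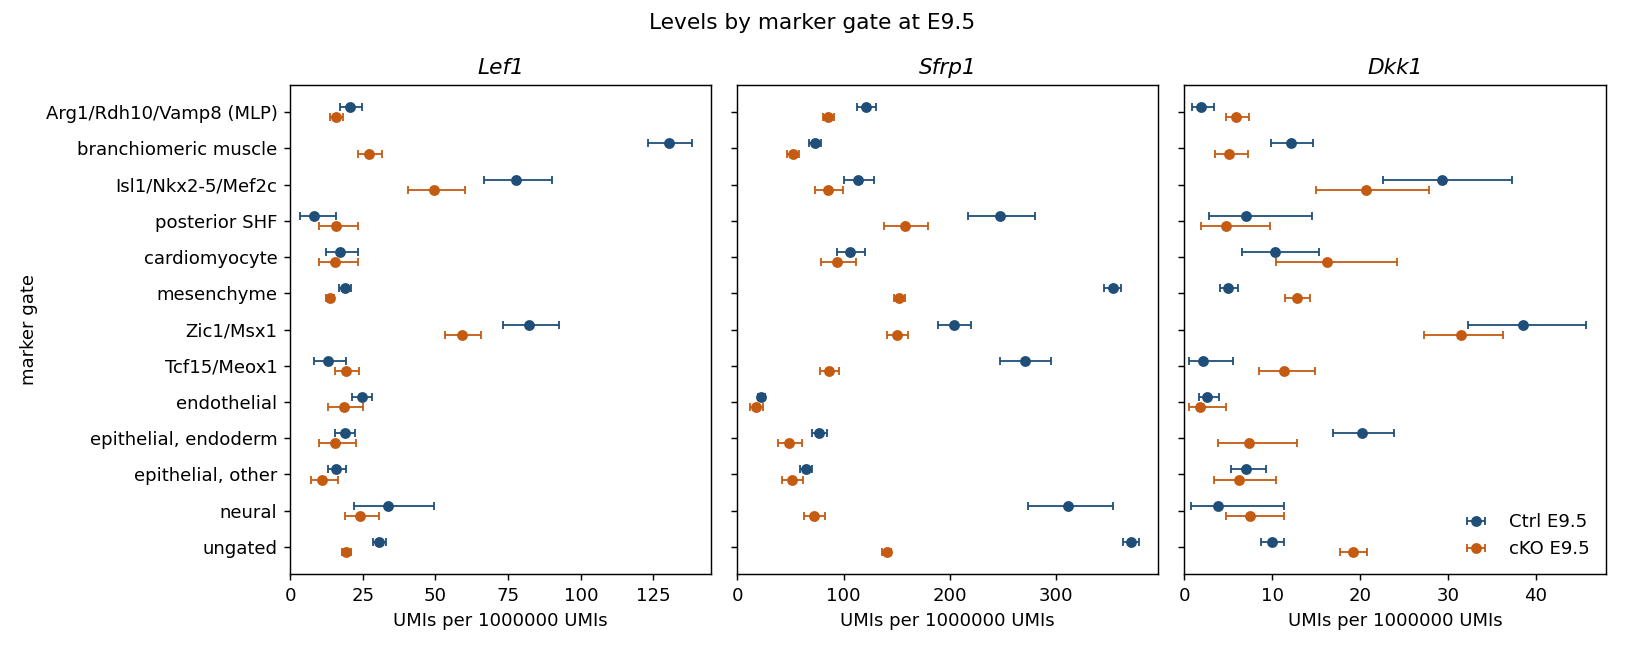
Levels of Lef1, Sfrp1 and Dkk1 in each gate of Ctrl E9.5 and cKO E9.5, in UPM with 95% counting intervals. Lef1 parts most in the BrM-like gate (130.4 and 27.3 UPM), Sfrp1 in mesenchyme, the Tcf15 and Meox1 gate and neural-like cells (in the last 56.7% of the Ctrl UMIs were in 5 cells), and Dkk1 lies higher in cKO in some gates and lower in others.

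Lef1 differed most in BrM-like cells. Its level at E8.5 was 42.7 UPM in Ctrl (33.4 to 53.9) and 28.8 in cKO (20.5 to 39.2). At E9.5 it was 130.4 UPM in Ctrl (123 to 138) and 27.3 in cKO (23.3 to 31.8). Ctrl E9.5 stood apart from the other 3 libraries, which did not exceed 42.7 UPM. The log2 ratio between stages was 1.61 in Ctrl (1.26 to 1.98) and −0.08 in cKO, and the ratio of cKO to Ctrl was −0.57 at E8.5 (−1.17 to 0.01) and −2.26 at E9.5 (−2.50 to −2.02). Of the 428 BrM-like cells of Ctrl E9.5, 300 held a Lef1 UMI, and of the 289 of cKO E9.5, 91 did. After thinning the shares were 54.3% (49.3 to 59.2) and 18.1% (13.8 to 23.2), at median depths of 19669 and 19346 UMIs. The lowest share of any gate in Ctrl E9.5 was 2% in pSHF-like cells (0.0506 to 10.6), at a median depth of 18671.5 UMIs. At E9.5 BrM-like cells made up 7.85% of Ctrl and 4.61% of cKO, and held 33.8% of all Lef1 UMIs of Ctrl E9.5.

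The cells in the BrM-like gate differed between the libraries in other genes as well. Of them, 352 of 428 in Ctrl and 142 of 289 in cKO held a UMI of Lhx2, a LIM homeodomain factor of branchiomeric progenitors. In the cells with Lhx2, Lef1 was at 139 and 31.3 UPM (log2 ratio −2.16, −2.47 to −1.85), and in those without it at 79.6 and 23.1 UPM (−1.78, −2.24 to −1.33). In cells with a UMI of Myf5, a myogenic determination factor, Lef1 was at 196 and 27.4 UPM (−2.84, −3.42 to −2.31), and without it at 109.96 and 27.2 UPM (−2.01, −2.29 to −1.75). With Msc the levels were 101 and 19.9 UPM and without it 198 and 58.0 UPM. Lef1 was thus lower in cKO on both sides of each of these 3 splits, which were made within the gate after its markers had been seen. The summed level of the gate's own markers was 409 and 313 UPM, that of Isl1, Nkx2-5, Mef2c, Fgf10 and Hand2 was 185 and 78.0 UPM, and that of Tcf15, Meox1, Pax1 and Uncx was 33.6 and 78.0 UPM. Their part in the result was not tested.

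**Figure D4:**
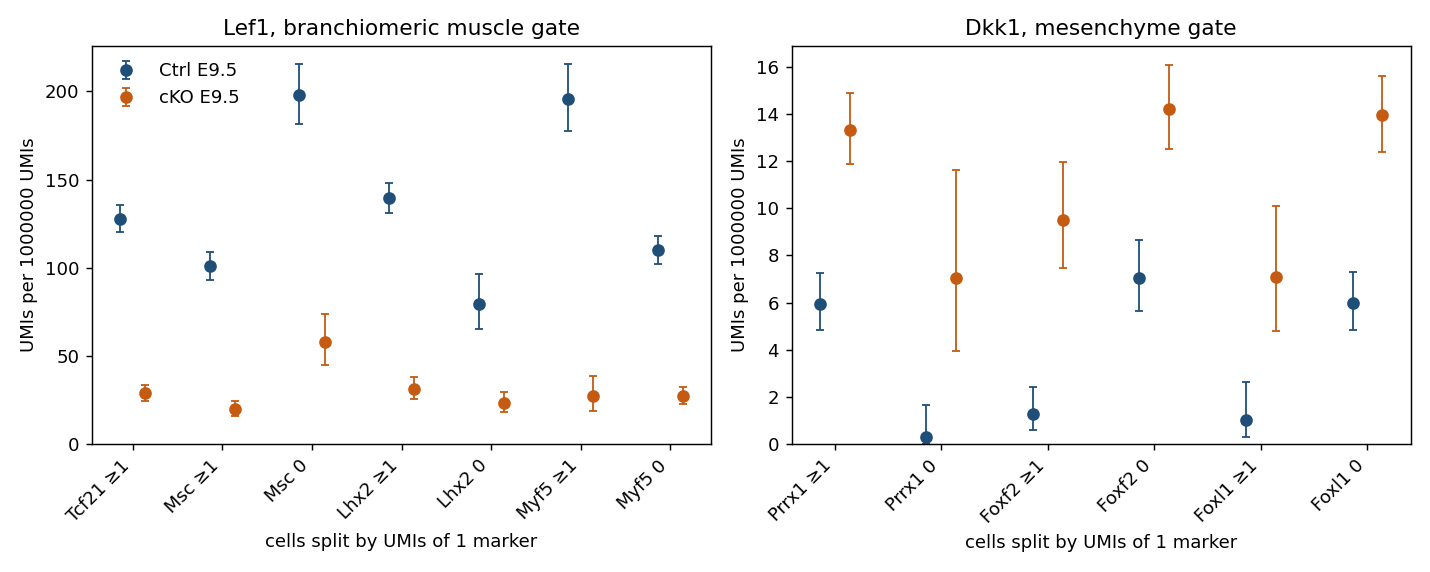
Lef1 in BrM-like cells and Dkk1 in the mesenchyme gate at E9.5, in cells with and without a UMI of single markers, in UPM with 95% counting intervals. Lef1 in Ctrl lies between 79.6 and 198 UPM in the splits by Lhx2, Myf5 and Msc, and in cKO between 19.9 and 58.0 UPM.

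Outside the BrM-like gate the Lef1 difference was smaller. In Ctrl and cKO E9.5 Lef1 was at 82.3 and 59.2 UPM in the Zic1 and Msx1 gate (−0.48, −0.70 to −0.25), 77.6 and 49.5 UPM in the Isl1, Nkx2-5 and Mef2c gate (−0.65, −1.01 to −0.29), and 20.7 and 15.9 UPM in MLP-like cells (−0.38, −0.71 to −0.05). It was lower in cKO in 10 of 12 gates, with 5 intervals below 0, and in 9 of 12 relative to the median of all genes. The exceptions were pSHF-like cells (8.06 and 15.6 UPM) and the Tcf15 and Meox1 gate (13.0 and 19.1 UPM), where both intervals included 0 (CM-like cells were the third relative to the median). In MLP-like cells of Ctrl, Lef1 was lower at E9.5 than at E8.5 (30.3 and 20.7 UPM, −0.55), the opposite order to that in BrM-like cells.

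Nkd1 and Axin2, the feedback genes, had a common high point. Nkd1 was at 237 UPM (221 to 253) in the Zic1 and Msx1 gate of Ctrl E9.5 and 75.3 UPM (71.5 to 79.2) in mesenchyme, the next gate, and 80.4% of thinned cells in the first gate held a UMI against 14.6% of epithelial-like cells without endoderm markers (91.4% and 26.1% unthinned, median depths 19702 and 18609.5 UMIs). Axin2 was at 41.7 UPM (35.2 to 49.1) in the Zic1 and Msx1 gate, 34.7 (26.7 to 44.3) in the Tcf15 and Meox1 gate and 31.3 (28.8 to 33.8) in mesenchyme, with overlapping intervals between neighbours in this order. Between the genotypes at E9.5, Nkd1 was lower in cKO in 11 of 12 gates, but in 8 of 12 relative to the median of all genes, and 4 intervals lay below 0, such as mesenchyme at 75.3 and 50.2 UPM (−0.59, −0.69 to −0.48) and the Zic1 and Msx1 gate at 237 and 200.05 UPM (−0.24, −0.37 to −0.11). Axin2 was at 31.3 and 20.6 UPM in mesenchyme (−0.60, −0.77 to −0.43) and at 41.7 and 57.6 UPM in the Zic1 and Msx1 gate (0.46, 0.18 to 0.75). In BrM-like cells, where Lef1 differed most, Nkd1 was at 35.9 and 26.6 UPM (−0.43, −0.71 to −0.15) and Axin2 at 10.3 and 10.1 UPM (−0.03, −0.52 to 0.45). The median of all genes in that gate was −0.23.

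Counted over all cells, few members passed 2-fold. Between the genotypes at E9.5, 0 of 10 members passed 2-fold, against 13.4% of the 15130 genes with at least 20 UMIs (3.56% higher, 9.8% lower). The largest differences were Sfrp1 (−0.90) and Lef1 (−0.82) below and Dkk1 (0.51) above, on the log2 scale. The median of the 10 was −0.16 and that of all genes −0.26, so ratios near −0.26 lie at the centre of this library pair. Relative to that centre 7 members were higher in cKO and 3 lower, and those of the 7 with a ratio below 0 (Wnt2, Wnt11, Sfrp5, Nkd1 and Axin2) turn direction with the scaling. At E8.5, 0 of 10 passed 2-fold against 4.22% of genes (2.92% higher, 1.3% lower), with a median of −0.12 for the members and 0.04 for all genes. Between the stages in Ctrl, 3 of 10 passed, against 20.8% of genes (17.9% higher and 2.98% lower). Sfrp1 (1.62) and Wnt11 (1.18) were higher at E9.5 and Sfrp5 (−1.35) was lower, where the median of all genes was 0.39. In cKO, 3 of 10 members passed between the stages, against 17.2% of genes (11.3% higher, 5.94% lower), namely Sfrp1 (1.04), Wnt11 (1.13) and Sfrp5 (−1.01), with a median of all genes of 0.06.

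Within the gates at E9.5 the counts were 3 of the 10 members in BrM-like cells, against 10.3% of genes (2.79% higher and 7.47% lower), and 3 of the 9 with a ratio in MLP-like cells, against 9.78% (3.25% higher and 6.53% lower). In BrM-like cells these were Lef1 (−2.26), Dkk1 (−1.24) and Sfrp5 (2.05), the last on 6 and 17 UMIs, in 4 cells of each library. In MLP-like cells they were Dkk1 (1.66), Wnt2 (−1.96) and Sfrp5 (−1.71, on 12 and 9 UMIs). The Wnt2 value there is 62 UMIs in 14 cells of Ctrl and 39 UMIs in 25 cells of cKO, and the thinned shares were 2.94% (1.35 to 5.51) and 2.15% (1.24 to 3.47), which overlap. The summed markers of the Isl1, Nkx2-5 and Mef2c gate stood in MLP-like cells at 447 UPM for Ctrl against 168 for cKO, and the summed Tcf15, Meox1, Pax1 and Uncx level at 99.4 and 244 UPM. Their part in these values was not tested.

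**Figure D5:**
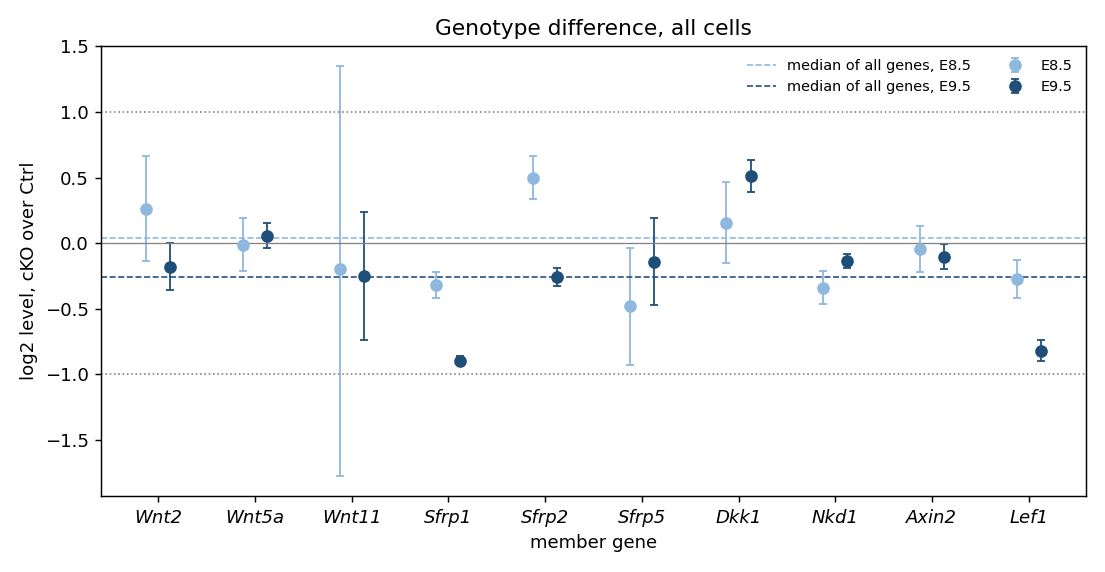
Log2 ratio of cKO to Ctrl for each member over all cells at E8.5 and E9.5, with 95% counting intervals and the median ratio of all genes at each stage. At E9.5 Sfrp1 and Lef1 lie below the median of −0.26 and Dkk1 above it, and no member passes 2-fold.

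Since the share of each gate differed between the libraries, the E9.5 ratios were also computed with the gate shares of cKO set to those of Ctrl. Sfrp1 was then at −1.11 and Lef1 at −0.89, further from 0 than before, and Dkk1 at 0.32. Wnt5a (0.06 before, −0.12 then), Wnt11 (−0.25 and 0.12) and Sfrp5 (−0.14 and 0.18) changed direction. Nkd1 was at −0.40, Sfrp2 at −0.34, Axin2 at −0.33 and Wnt2 at −0.02. These values hold the cell makeup fixed only as far as the gates describe it.

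The members also grouped by pattern. Across the 43 groups of at least 30 cells formed by gate and library, cells in no gate included, Pearson's r of log2(UPM + 10) between Wnt2 and Sfrp5 was 0.90, between Nkd1 and Axin2 0.79, and between Wnt2 and Wnt5a 0.76, while Wnt2 and Axin2 gave −0.44. These groups share libraries and depth and the values are descriptions. In single cells of Ctrl E9.5, thinned, 47.9% of the 718 cells with an Axin2 UMI also held Nkd1, which 32.4% of all 4898 cells held, and the shares were 48.8% and 29.9% in cKO E9.5. Dkk1 was found with Lef1 in 36.2% of its 287 cells in Ctrl E9.5, where 21.5% of all cells held Lef1, and in 31.4% of 458 cells in cKO E9.5, where 15.9% did. These shares are over all cells of a library and were not computed within a gate.

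Among 12026 genes compared, those most like each member in level across the same groups were as follows. Wnt2 was followed by Ifitm10 (r = 0.91), Tecrl (0.91) and Sfrp5 (0.90), and Sfrp5 by Ftcd (0.94), Rgs10 (0.91) and Bves (0.90), of which Tecrl and Bves are genes of heart muscle. Wnt5a was closest to Rragd (0.87), Rbpms2 (0.84) and Smarcd3 (0.83), the last a cardiac chromatin remodelling subunit. Sfrp1 was closest to Col9a1 (0.87), Sox5 (0.86) and Bnc2 (0.83), the first 2 known from cartilage, and Sfrp2 to Efna2 (0.83), H2afy2 (0.81) and Gas1 (0.80). Nkd1 was closest to Gdf10 (0.89), Zic5 (0.87) and Zic2 (0.85), and Axin2 to Cthrc1 (0.88), Lmo4 (0.87) and Nbl1 (0.86). The values for Dkk1 were lower, with Daam2 (0.72), Sp5 (0.69) and Ccdc80 (0.67), and so were those for Lef1, with Tcf7 (0.65), Notum (0.62) and Rxrg (0.62). Daam2, Sp5, Tcf7 and Notum are themselves WNT pathway genes. Wnt11 had fewer than 200 UMIs over all libraries and was not compared, and gate markers were left out.

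A longer list of 88 WNT pathway genes gave the setting, of which 80 had at least 20 UMIs at E9.5. Over all cells 2 were past 2-fold higher in cKO and 9 lower, with a median log2 ratio of −0.26, equal to that of all genes, of which 3.56% were past 2-fold higher and 9.8% lower. Of the ligands, 4 of 13 were lower and 0 higher, beside those same 9.8% and 3.56% of all genes. These were Wnt1 (61 and 6 UMIs, −3.50), Wnt7b (48 and 7, −2.93), Wnt9b (125 and 23, −2.59) and Wnt6 (837 and 313, −1.57). Epithelial-like cells with and without endoderm markers made up 6.44% and 6.90% of Ctrl at this stage, and 1.23% and 1.93% of cKO. The part of these shares in the ligand values was not tested. Of 16 receptors and co-receptors only Fzd6 passed (131 and 51 UMIs, −1.51), and of 10 secreted inhibitors and 9 planar cell polarity genes none did.

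The R-spondin branch, whose secreted proteins strengthen WNT signals at the receptor, had 1 of 9 genes higher and 3 lower, beside 3.56% and 9.8% of all genes. Rspo3 was at 10.6 and 21.9 UPM (1.05, 0.95 to 1.16), and Rspo2 at 3.55 and 1.11 UPM (−1.68), as was the receptor Lgr5 on 156 and 74 UMIs (−1.23). Among 14 intracellular genes, Dvl3, a Dishevelled protein that relays the receptor signal, was at 5.74 and 14.6 UPM (1.34, 1.20 to 1.49), and was also higher in MLP-like cells (1.90), BrM-like cells (1.11) and mesenchyme (1.28). The cKO E9.5 library was counted on a different gene table from Ctrl E9.5, and its part in the Dvl3 values was not tested. Tcf7, a partner of β-catenin like Lef1, was at 15.97 and 7.69 UPM (−1.05, −1.18 to −0.93). In BrM-like cells it was at 55.1 and 21.1 UPM (−1.38, −1.67 to −1.10), and so lower in the same cells as Lef1. Of 12 targets and feedback genes, which include Lef1, Nkd1 and Axin2 and overlap the other lists, 0 were past 2-fold higher and 3 lower, with a median of −0.62, beside 3.56% and 9.8% of all genes and their median of −0.26. At E8.5, 4 of 67 listed genes were past 2-fold higher in cKO and 0 lower, beside 2.92% and 1.3% of all genes, and all 4 were Frizzled receptors.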

How the data were processed

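The authors prepared 3′ libraries (Chromium Single Cell 3′ kit v2 per the labels, v2 or a later kit per the study's methods) and deposited whole-number UMI counts per gene and cell on mm10. The aligner is given as Cell Ranger, version 3.1.0 in the submitters' processing notes, 3.0.2 per the file headers at E8.5 and none at E9.5. The UMI counts were summed over the cells of a group and divided by the UMIs of the 27514 shared genes (99.4% to 99.9% of each library). Levels have exact Poisson intervals, ratios exact conditional binomial intervals and shares exact Clopper-Pearson intervals, all 95% and two-sided. With 1 library per group no test was run. A level of 0 was bounded at 3 UMIs, and no ratio was given where both counts were 3 or fewer. Past 2-fold means a log2 ratio of 1 or more in size. Depths were 25391654 UMIs (Ctrl E8.5), 25847734 (cKO E8.5), 94834703 (Ctrl E9.5) and 104773150 (cKO E9.5).

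No cell annotation was used here, so gates were rebuilt from marker UMIs, and names may differ from the study's clusters. Of the check markers of the BrM gate, 1 is not reported here. Examples are 2 of 3 MLP markers with 2 UMIs each, 2 of 5 BrM markers with 1 UMI each and 4 of 6 mesenchyme markers with 1 UMI each. Each cell entered 1 gate at most, in a fixed order. Cells passing the gates of several lineages, possible doublets, were left out of all gates, and no doublet caller was run. The members, gene lists and tests were chosen with earlier results of these data known, and gate thresholds after the markers' (not the members') distributions had been seen. All 10 members are named. Of the pathway list, those past 2-fold at E9.5 with at least 50 UMIs are named, at most 12, and for likeness the 3 genes with the highest r. Promoters came from RefSeq (GRCm38.p6), and a genome of another build was not used here. The code for the ratios and their intervals was run on simulated independent Poisson counts, the setting that the intervals assume. This checks the calculation only, and not the clustering of UMIs in a few cells. Python 3.11.15, numpy 2.4.6, scipy 1.17.1, pandas 2.3.3 and edgeR 4.0.16 (TMM factors only, in R 4.3.3) were used.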

Additional observations from a re-analysis of the deposited data

Results flagged for a closer look

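Sfrp2 over all cells had opposite directions at the 2 stages. The log2 ratio of cKO to Ctrl was 0.4987 at E8.5 (515 and 742 UMIs) and -0.2578 at E9.5 (3527 and 3274 UMIs), and the intervals, 0.33 to 0.66 and −0.33 to −0.19, both left out 0. The difference between the stages was not tested, since each group is 1 library. The E9.5 value equals the median of all genes in that comparison (−0.26), and the E8.5 median was 0.04. Within gates at E8.5, Sfrp2 was higher in cKO in 6 of 7 and 4 intervals lay above 0, as in MLP-like cells (22.6 and 35.2 UPM).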

How the results depend on the processing

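No paired analysis was possible because each group is 1 library and the labels give no replicate numbers, and for the same reason no library could be left out. Over all cells at E9.5 the count of members past 2-fold was 0, and 1 (Sfrp1, lower) with the gate shares of cKO set to those of Ctrl. In BrM-like cells it was 3, and 5 without the 5% of barcodes with most UMIs (adding Wnt2 higher and Wnt11 lower), 5 with cells thinned to 10000 UMIs (adding Wnt2 higher and Wnt5a lower) and 5 with the gate set on thinned cells (adding Wnt2 higher and Wnt11 lower). It was 2 under a stricter gate, without Sfrp5. The Wnt2, Wnt11 and Sfrp5 values there rest on few UMIs. Lef1 and Dkk1 stayed past 2-fold lower under each of these. In MLP-like cells the count was 3, and 2 when thinned, without Sfrp5. Between stages in Ctrl it was 3, and 2 under TMM or with the median set to 0, without Wnt11. The share of cells with a UMI reached 10% in Ctrl E9.5 for 6 members, and for 2 (Sfrp1 and Nkd1) when 2 UMIs were asked for. Under the stricter gate the gate with the highest level stayed the same for 9 of 10 members, and Wnt5a moved to MLP-like cells. Leaving Lhx2 out of the BrM gate, or taking MLP-like cells without a Tcf15 or Meox1 UMI or only with an Isl1 UMI, left 3 members past 2-fold, and these alternatives were chosen after seeing the data. Of 432 values of single members under the alternatives, 361 stayed within the first interval, 71 moved beyond it and 0 called values changed sign. An alternative that kept only members with at least 20 UMIs left their values unchanged, so these are among the 361 by construction. Depth limits Wnt11 at E8.5 and Sfrp5 and Wnt2 outside the pSHF-like and CM-like gates, where a few cells hold most UMIs. Inside the pSHF-like gate of Ctrl E9.5 a few cells also held most Sfrp5 UMIs.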
